A study of Mus musculus with 1298 samples.

Results

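The genes described here encode the respiratory chain, ATP synthase, cytochrome c and the uncoupling protein Ucp1, and they were chosen by symbol in the single-cell tables: mt- genes, Nduf followed by a, b, c, s or v, Sdha to Sdhd, Uqcr, Cox4 to Cox8, Atp5, and *Ucp1*, *Cycs* and *Cyc1*. The rule found 0.485% of the 25381 genes listed in those tables, of which 110 stood in both of them and all but 2 in the bulk table. These members comprised 13 mitochondrially encoded genes, 38 subunit genes of complex I, 4 of complex II, 9 of complex III, *Cycs*, 17 of complex IV, 18 of ATP synthase (complex V), *Ucp1*, 12 genes whose symbols mark assembly factors, and 10 pseudogenes or retrocopies. In no test were 6 of them: *Atp5o.1*, which stood in the 10× table alone, *Cox7b2*, which had low counts in single cells and is the other member outside the bulk table, and *Atp5c1-ps*, *Atp5l-ps2*, *Uqcrh-ps1* and *Uqcrh-ps2*, which stood outside the 10× table and had low counts in bulk.

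The respiratory chain passes electrons from NADH and succinate through complexes I, II and III and the mobile carrier cytochrome c to oxygen at complex IV, while complexes I, III and IV move protons across the inner mitochondrial membrane. ATP synthase spends that proton gradient to make ATP, and Ucp1, the protein that defines thermogenic brown fat, lets the protons flow back so that the energy is released as heat. Most subunits are encoded in the nucleus and a few core subunits on the mitochondrial genome, and several complex IV subunits have paired genes, with an isoform found in most tissues and another found mainly in heart, skeletal muscle or brown fat.

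All samples were Pax7 CreER:R26R-stop-EYFP mouse embryos given tamoxifen at E9.5. Cells that expressed Pax7 at that time were labelled with YFP, as were their descendants. Sorted YFP+ cells came from embryos pooled without head, limbs and viscera. Cells of a platform and day were taken as 1 pool, although by the labels the Smart-seq2 cells of E12.5 came from 6 plates in 3 sequencing batches, those of E14.5 from 4 plates in 2 batches and those of E16.5 from 3 plates in 1 batch. The 10× droplet libraries of E12.5, E14.5 and E16.5 held 1017, 968 and 949 cells, and 982 cells on Smart-seq2 plates divided into 31.98%, 33.2% and 34.8% over those days. The 18 bulk libraries came from cells that the labels place at E16.5, sorted as Pdgfra+ (4 libraries) or Pdgfra-/Cd36+ (2 libraries), or from Pdgfra+ cells of E14.5 kept in adipogenic medium (ADM, 6 libraries) or plain growth medium (DMEM, 6 libraries). The study's methods describe the sorted bulk libraries as technical duplicates and the cultured ones as triplicate wells, so their spread is largely technical. The study's text places the Thy1- part of the sorted Pdgfra+ cells at E14.5 instead, and if so, day is mixed into the comparison of Cd36+ with Pdgfra+ libraries.

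Cells were grouped into classes without the respiratory chain genes and named from marker genes: early and late mesenchymal progenitor-like (EP-like and LP-like), myogenic progenitor-like (EM-like), differentiating myocyte-like (LM-like), dermal fibroblast-like (DF-like), brown adipocyte-like (BA-like), neuron-like (N-like), neural progenitor or glia-like (NP-like) and pericyte-like (PE-like) cells. Of 3916 cells 3895 were named, and the 10× libraries shared 3 cell barcodes. Median depth per cell was 2185, 5909 and 1621 UMIs in the 10× libraries from E12.5 to E16.5, against 393416, 769833 and 829980 expected counts in the Smart-seq2 pools, and bulk libraries held 3390851 to 35332908 counts. Tests used 1 sum of counts per class and pool, and CPM are counts per 1000000 of such a sum or of a bulk library. All 9 BA-like markers were found in that cluster, and their summed level was 13049 CPM in the 10× and 34310 CPM in the Smart-seq2 BA-like sum against 133.7 to 467.07 CPM in the 4 LP-like sums. In both BA-like sums the endothelial gene *Cdh5* was at 0 and *Kdr* at no more than 0.0184 CPM. The other endothelial gene checked, *Pecam1*, was counted in up to 100% of the cells of the BA-like cluster on a platform. In most other clusters the most widely counted endothelial gene likewise stood in 98.1% of cells or more on a platform.

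BA-like cells had the highest mitochondrial share, the percentage of a cell's counts on the 13 mt- genes. On Smart-seq2 the share in 60 BA-like cells at E16.5 had a median of 9.60% (quartiles 8.52% and 10.5%, range 4.29% to 13.5%). The other classes of that pool had medians of 2.32% in LP-like, 2.58% in DF-like, 4.16% in EM-like and 5.22% in LM-like cells. On 10× the median was 3.94% in BA-like cells, which made up 17.6% of that library (quartiles 2.86% and 5.14%), against 1.34% to 1.84% in the other classes of E16.5. The order of the classes was thus BA-like, then LM-like, then EM-like on Smart-seq2, whereas on 10× the values of the classes other than BA-like lay within the quartile range of LP-like cells, 1.09% to 1.94%. On the 3 Smart-seq2 plates of E16.5 the median was 9.49%, 9.60% and 9.97% in BA-like and 2.12%, 2.42% and 2.33% in LP-like cells. Cells are not replicates and BA-like cells had 1 pool on each platform, so no test was made of these shares.

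The 8% limit on the mitochondrial share that the study's methods state fell on BA-like cells more than on others. No such limit was applied here, and 64 cells lay above it. On Smart-seq2, 47 of 60 BA-like cells (78.3%) exceeded 8%, against 2 of 32 LM-like cells and 1 cell each of the EM-like and DF-like classes at E16.5. On 10×, 9 BA-like cells (5.39%) exceeded it. With the limit applied, the BA-like median would be 5.72% on Smart-seq2, with 13 cells left, and 3.72% on 10×.

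**Figure D1:**
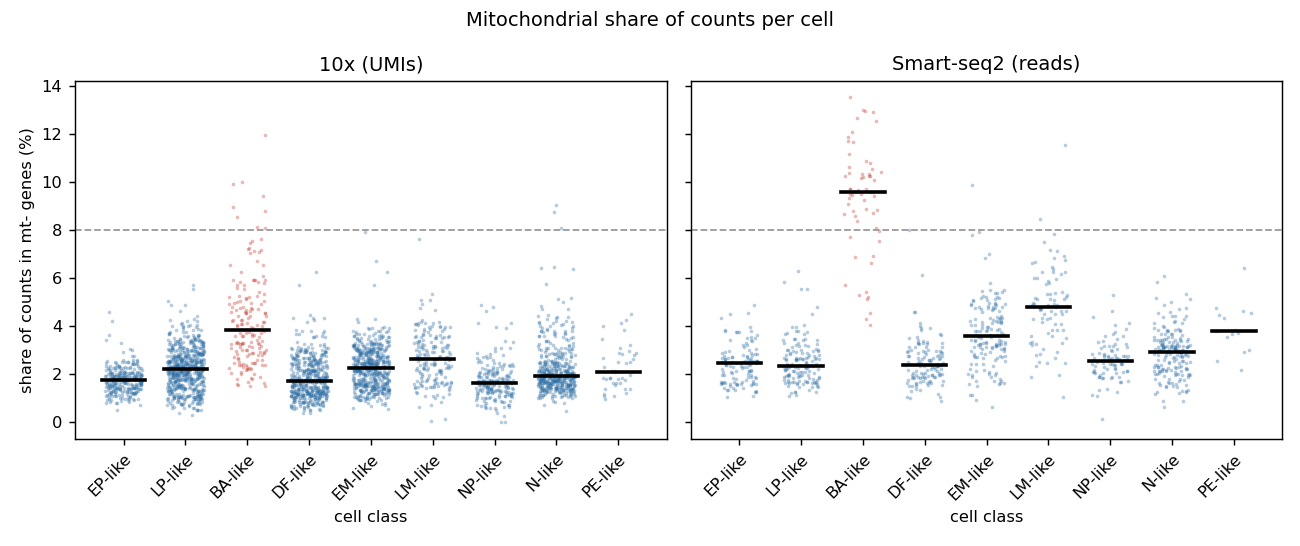
Mitochondrial share of counts (percent, y axis) in each cell of all days, by class (x axis), with 10× cells and Smart-seq2 cells in separate panels, points for cells, bars for medians and a dashed line at 8%. BA-like cells stand highest on both platforms, with medians of 3.94% and 9.60% at E16.5.

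For the nuclear genes too, BA-like cells were highest on both platforms, followed by LM-like cells. Nuclear subunit genes and *Cycs* took a median of 10.5% of the counts not on mt- genes in 10× BA-like cells, against 2.44% in LP-like and 4.12% in LM-like cells of the same library. On Smart-seq2 the medians at E16.5 were 7.20% in BA-like, 1.02% in LP-like and 2.79% in LM-like cells.

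Stretches of promoter sequence are shown for 4 nuclear genes chosen as examples because they carried the letters bound by NRF1, a factor known to act on many nuclear respiratory genes, and for the tissue-restricted genes *Cox7a1*, *Cox8b* and *Ucp1*, whose shown stretches did not. Sequences are from RefSeq on build GRCm38.p6, written 5′ to 3′ on the gene's strand and upstream of its start, with capitals for exact matches to the searched letters GCGCATGC on either strand. They are *Cycs* (minus strand, chr6:50566596-50566655), *Sdhb* (plus strand, chr4:140961191-140961250), *Atp5k* (minus strand, chr5:108434415-108434474), *Ndufa6* (minus strand, chr15:82354341-82354400), *Cox7a1* (plus strand, chr7:30184111-30184170), *Cox8b* (minus strand, chr7:140900447-140900506) and *Ucp1* (plus strand, chr8:83290288-83290347).
Cycs: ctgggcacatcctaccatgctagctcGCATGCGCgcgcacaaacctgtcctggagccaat
Sdhb: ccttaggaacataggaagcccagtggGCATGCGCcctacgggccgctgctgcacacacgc
Atp5k: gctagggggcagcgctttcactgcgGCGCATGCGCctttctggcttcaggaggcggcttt
Ndufa6: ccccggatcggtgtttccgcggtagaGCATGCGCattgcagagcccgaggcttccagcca
Cox7a1: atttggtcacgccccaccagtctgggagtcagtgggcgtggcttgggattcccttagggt
Cox8b: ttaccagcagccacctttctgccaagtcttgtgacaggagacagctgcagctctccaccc
Ucp1: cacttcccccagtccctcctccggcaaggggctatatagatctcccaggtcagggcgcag

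Promoter windows (250 bases before to 50 bases after the start) were found for 82 of the 110 nuclear members. The NRF1 letters GCGCATGC stood in 11 of the 70 nuclear subunit genes and *Cycs* with a window (15.7%), against 824 of all 27025 genes with a window (3.05%). A gene with several windows was counted once. The letters CCGGAAG, the core bound by ETS factors such as GABPA, stood in 16 of the 70 (22.9%) against 9.93% of all genes with a window. AAGGTCA, the site of the estrogen-related receptor, stood in 8 (11.4%) against 5.38%. Any of the 3 stood in 26 of the 70 (37.1%) against 17.2%. A match to these letters is a description of the sequence, and no binding was measured.

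Nearly all respiratory chain genes were higher in BA-like than in LP-like cells. In the edgeR fit over 31 class sums, 95.4% of the members tested rose and 1 member fell, with 5 that did not rise and 14 not tested, where 13.3% of all 13753 genes rose and 17.9% fell. The median log2 fold change was 2.20 over the members and -0.21 over all genes. In simulated data for this comparison, in which few genes were changed, 11 of 32 calls were false. BA-like sums existed in 1 pool on each platform, at E16.5 only. Within these pools all members with more than 10 counts but 1 stood above LP-like cells on 10×, and all but 3 on Smart-seq2.

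All 13 mt- genes rose, by log2 1.37 for *mt-Co3*, a complex IV subunit (SE 0.23, adjusted p = 9.64e-05), to 2.13 for *mt-Nd2* of complex I (SE 0.26, adjusted p = 1.94e-06), with a median of 1.70. The level of *mt-Nd2* was 2139 CPM on 10× and 2035 CPM on Smart-seq2 in BA-like cells, against 757 and 746 CPM on 10× and 268.97 and 284.2 CPM on Smart-seq2 in LP-like cells of E14.5 and E16.5. The groups did not overlap on either platform. For *mt-Co3* they overlapped on 10×, at 4435 CPM in BA-like cells and 6305 and 2503 CPM in LP-like cells.

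Of the 38 genes put in complex I, the NADH dehydrogenase, by their Nduf symbol, 37 rose and 1 fell (*Ndufa4l2*), with a median log2 fold change of 2.32. All 4 genes of complex II, the succinate dehydrogenase, rose (median 2.79), as did all 9 of complex III, which hands electrons to cytochrome c (median 3.07). *Cyc1*, the heme subunit of complex III that passes them on, stood at 912 CPM in the 10× and 2337 CPM in the Smart-seq2 BA-like sum. In LP-like sums it was at 110 and 81.7 CPM on 10× and at 154.7 and 115.3 CPM on Smart-seq2, far below both BA-like values. Its log2 fold change was 3.81 (SE 0.27, adjusted p = 2.01e-09). *Cycs* itself, cytochrome c, stood at 1966 and 790 CPM in BA-like cells against 386.96 and 247.7 CPM on 10× and 71.7 and 84.03 CPM on Smart-seq2 in LP-like cells. It rose by log2 3.05 (SE 0.29, adjusted p = 5e-08).

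In complex IV, the cytochrome c oxidase, 14 of 16 genes rose (median 2.11). *Cox5a*, a subunit with a single gene in this list, was at 1508 CPM on 10× and 1089 CPM on Smart-seq2 in BA-like cells, whereas LP-like cells were between 158.1 and 259.4 CPM on 10× and between 58.8 and 61.7 CPM on Smart-seq2. Its log2 fold change was 3.66 (SE 0.27, adjusted p = 2.56e-09). In complex V 13 of 15 genes rose, with a median of 1.90, below the median of complex III. Those that did not pass were *Atp5g3*, 1 of 3 genes for the membrane ring subunit (490 against 318.8 CPM on 10× at E16.5, log2 0.60, adjusted p = 0.0635), and *Atp5j*, a peripheral stalk subunit (log2 0.29, adjusted p = 0.357), which is named because it was the remaining exception. The other ring genes rose, *Atp5g1* by log2 1.44 (adjusted p = 0.000104) and *Atp5g2* by 1.27 (adjusted p = 0.0046). All 12 assembly factors rose as well, with a median of 2.17.

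**Figure D2:**
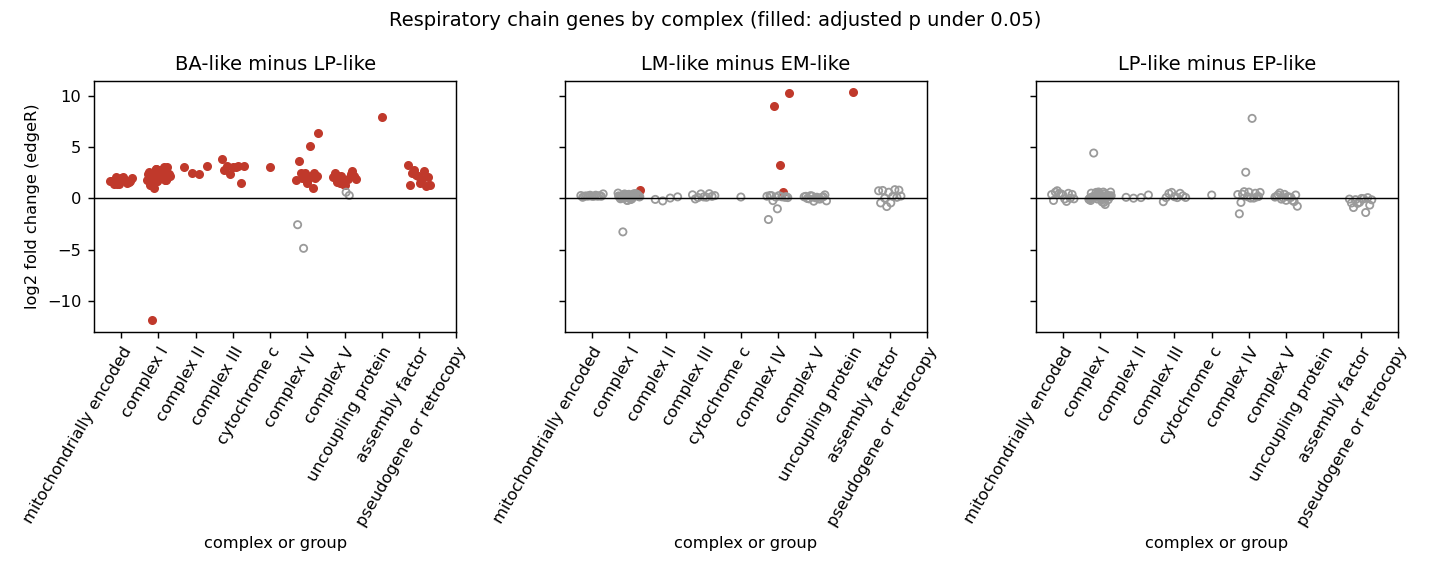
Log2 fold changes (y axis) of the members in 3 comparisons (panels), by complex (x axis), with a point for each gene and filled points for adjusted p under 0.05. BA-like against LP-like cells show medians from 1.70 for mt- genes to 3.07 for complex III, while LM-like against EM-like and LP-like against EP-like cells lie near 0 for most genes, apart from isoform genes and *Ucp1*.

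Against DF-like cells the result was of the same size, with the BA-like sums shared between both comparisons. Of the members tested 92.7% rose (all but 8) and 1 fell, beside 13.1% of all genes that rose and 15.6% that fell, and the median log2 fold change was 2.17. *Cyc1* differed by log2 3.34 (SE 0.27, adjusted p = 5.38e-09), *Cox5a* by 3.38 (SE 0.27, adjusted p = 6.04e-09) and *Cycs* by 3.02 (SE 0.29, adjusted p = 5.2e-08). *Ndufaf1*, a complex I assembly factor, was at 32.3 and 114.3 CPM in BA-like cells and at 2.05 to 2.18 CPM on 10× and 12.9 to 15.8 CPM on Smart-seq2 in DF-like cells (log2 3.55, SE 0.56, adjusted p = 4.16e-05). The ring gene *Atp5g2* stood apart from *Atp5g1* here. It was at 819 CPM in BA-like and 865 CPM in DF-like cells of the 10× E16.5 library (log2 0.18, SE 0.33, adjusted p = 0.747), whereas *Atp5g1* was at 1162 against 454.3 CPM (log2 1.33, adjusted p = 0.000257).

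Among the paired isoforms of complex IV, *Cox7a1*, *Cox8b* and *Cox6b2* rose over LP-like cells, *Cox6b2* by less than its partner (log2 1.49, adjusted p = 0.0137, against 2.44, adjusted p = 5.13e-08, for *Cox6b1*). *Cox4i2* (-2.56, adjusted p = 0.352) and *Cox6a2* (-4.87, adjusted p = 0.104) did not pass. Over DF-like cells the order of the 6b pair was reversed, at log2 2.80 for *Cox6b2* and 2.38 for *Cox6b1*. *Cox7a1*, the heart, muscle and brown fat isoform of subunit 7a, was at 765 CPM in BA-like cells of 10× and at 7.90 CPM, or 3 UMIs, in LP-like cells of the same library. On Smart-seq2 it was at 65.7 CPM in BA-like and 0.257 CPM in LP-like cells. It rose by log2 5.13 (SE 1.26, adjusted p = 0.00394) over LP-like and by 6.36 (SE 1.17, adjusted p = 0.000326) over DF-like cells. Its common partner *Cox7a2* was also higher in BA-like cells (2359 against 617 CPM on 10×, log2 2.23, adjusted p = 2.99e-06). As a share of the UMIs of both genes *Cox7a1* made up 24.5% in BA-like cells (exact 95% interval 22.4% to 26.7%), and 17.1% on Smart-seq2 per base of exon. The share was 1.27% (0.262% to 3.65%) in LP-like and 0.719% (0.0872% to 2.57%) in EM-like cells of the 10× E16.5 library, so those intervals lay far below that of BA-like cells.

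*Cox8b*, the muscle and brown fat isoform of subunit 8, was shared by BA-like and LM-like cells. Its level was 62.7 CPM on 10× and 16.8 CPM on Smart-seq2 in BA-like cells. In LM-like cells it was 32.9, 62.4 and 119.1 CPM on 10× from E12.5 to E16.5 and 9.27 and 11.6 CPM on Smart-seq2 at E14.5 and E16.5. EM-like cells had 0 UMIs in all 3 10× libraries, which allows a share of the *Cox8a* and *Cox8b* UMIs of up to 0.515% at E16.5 (3 counts of the total), against 5.92% (2.74% to 10.9%) in LM-like and 1.44% (0.994% to 2.02%) in BA-like cells. Against LP-like cells *Cox8b* was at least 7.93-fold higher in BA-like cells on 10×, where LP-like cells had 0 UMIs and a floor of 3 counts per sum was used (log2 6.40 in the fit, SE 1.12, adjusted p = 0.000315).

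*Cox6a2*, the muscle isoform of subunit 6a, was seen in LM-like cells. On 10× it was at 140, 197.9 and 132.3 CPM from E12.5 to E16.5, and on Smart-seq2 at 6.96 and 6.50 CPM. It had 0 UMIs among the 1070 *Cox6a1* and *Cox6a2* UMIs of BA-like cells, which allows a share of up to 0.28%. In LM-like cells the share was 35.4% (22.2% to 50.5%), 28.5% (24.6% to 32.6%) and 21.7% (10.9% to 36.4%) at the 3 days on 10×. On Smart-seq2 it was 2.94% and 2.50% per base of exon. UMIs at transcript ends and reads over whole transcripts are different measures, and the cause of the gap between platforms was not tested.

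PE-like cells, 30 cells in 1 10× sum at E16.5, had another pair of isoforms. *Ndufa4l2*, a paralog of the complex IV subunit gene *Ndufa4* known as a target of hypoxia signaling, had 33 of the 44 UMIs of the pair (75%, interval 59.7% to 86.8%), at 606 CPM, 16.4-fold the LP-like level of that library. *Cox4i2*, the hypoxia-associated isoform of subunit 4, had 10 of 85 UMIs of its pair (11.8%, interval 5.79% to 20.6%) and was at least 23.2-fold above LP-like cells. *Ndufa4l2* was at 0 in both BA-like sums, at least 6.47-fold below LP-like cells on 10× and at least 315.8-fold below on Smart-seq2, and was the only member that fell in BA-like cells against either LP-like or DF-like cells. Against LP-like cells that call (adjusted p = 0.00148) was lost without the Smart-seq2 pool of E16.5, without cells over 8% and with Smart-seq2 sums only. Each of these fits held 1 BA-like sum. Without cells over 8% the Smart-seq2 BA-like cells left were fewer than the 20 needed for a sum. In LP-like cells it was low at E14.5 (6.54 and 0.952 CPM) and at 36.9 and 16.95 CPM at E16.5. With 1 sum, PE-like values have no replicate check.

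*Ucp1* was sparse. On 10×, 15 BA-like cells (8.93%) held 21 UMIs (39.9 CPM in the E16.5 sum), and on Smart-seq2 23 of 61 BA-like cells held 3217 counts (57.6 CPM). The 4 LP-like sums were at 0.467 and 0 CPM on 10× and 0 and 0.135 CPM on Smart-seq2, and 0 DF-like cells on 10× had a UMI, which allows a share of up to 0.632% of cells with a UMI and sets no limit on cells that express the gene. The excess over LP-like cells was at least 5.05-fold on 10× (log2 7.96 in the fit, SE 2.23, adjusted p = 0.0238). In BA-like cells of the 10× library, *Cox7a1* was seen in 74.3% of cells and *Ucp1* in 8.98%, at a median of 3014 UMIs per cell.

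**Figure D3:**
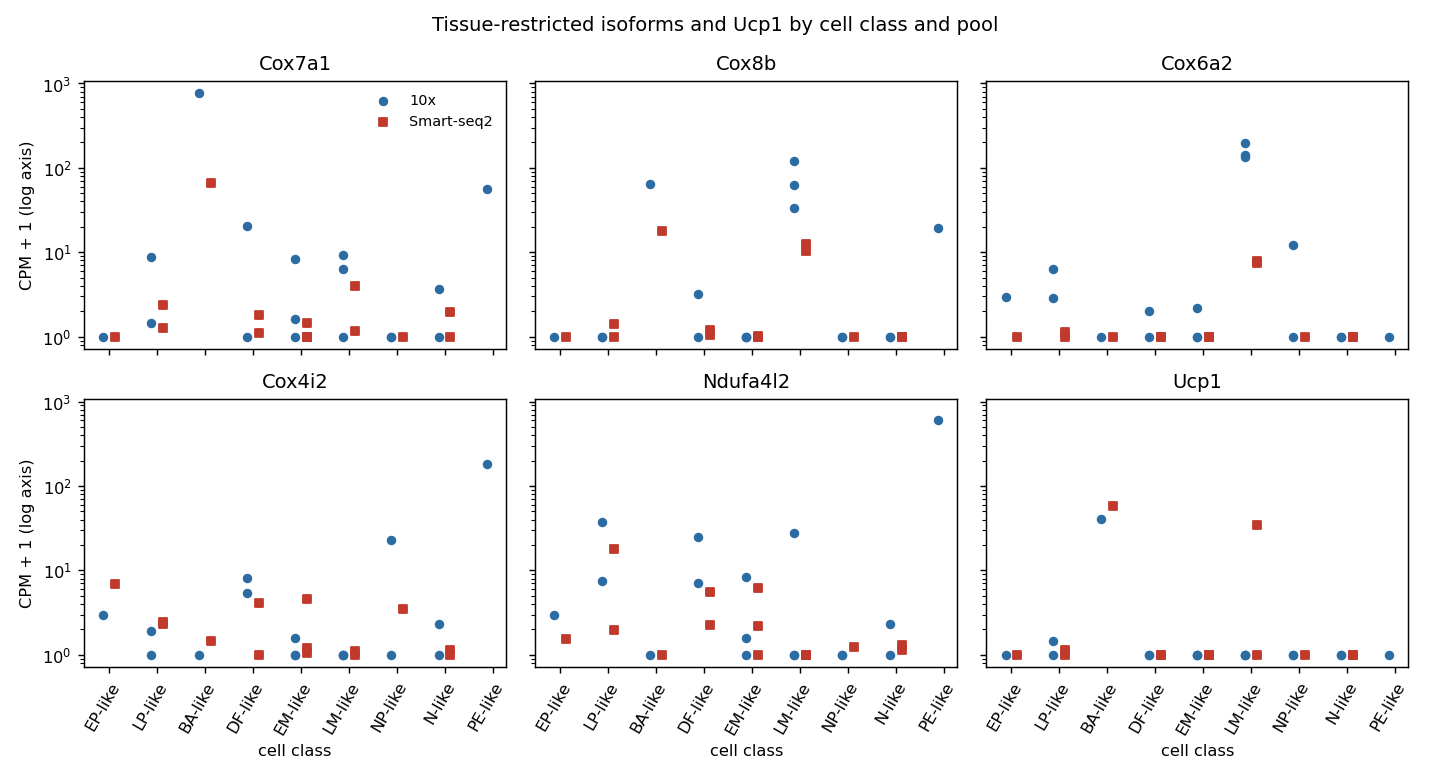
Levels (CPM + 1, log axis) of 6 tissue-restricted genes (panels) by class (x axis), with a blue circle for each 10× and a red square for each Smart-seq2 class sum. *Cox7a1* and *Ucp1* are highest in BA-like sums, *Cox6a2* in LM-like sums, and *Ndufa4l2* and *Cox4i2* in the single PE-like sum.

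From EM-like to LM-like cells, from progenitors to differentiating myocytes, members rose about as often as other genes. In the 5 pools with both classes, 8 members rose (7.34% of those tested), where 7.64% of all genes rose. With DESeq2 size factors 18.3% rose and with DESeq2 22.9%. Without the E14.5 pool of 10× 4 did, without its E16.5 pool 5, and without the E16.5 pool of Smart-seq2 3. The median log2 fold change was 0.21 over the members. The mt- genes did not pass, and their 13 estimates lay between 0.11 and 0.44. The difference between pools was large relative to these values: 86.1% of the members with more than 10 counts were higher in LM-like cells on Smart-seq2 at E16.5, but 43.9% on 10× at E12.5.

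Of the 8, *Cox6a2*, *Cox8b*, *Cox7a1* and *Cox7a2l* belong to complex IV by symbol, *Ndufv3*, *Ndufc1* and *Ndufs4* to complex I, and the remaining gene was *Ucp1*. *Cox6a2* rose by log2 9.00 (SE 0.99, adjusted p = 1.02e-05) and *Cox8b* by 10.33 (SE 1.32, adjusted p = 3.66e-05), both from EM-like sums at or near 0, so that these fitted values are no bound on the fold. *Cox7a2l*, which encodes a factor that joins complexes III and IV, rose by 0.59 (SE 0.18, adjusted p = 0.0257). *Ndufv3*, a complex I subunit, was at 320, 305.01 and 238.2 CPM on 10× and 116.9 and 111.4 CPM on Smart-seq2 in LM-like cells, against 182.8, 172.5 and 152.2 CPM and 79.1 and 50.4 CPM in EM-like cells of the same pools. It was higher in 5 of 5 pools (log2 0.83, SE 0.17, adjusted p = 0.00137). *Ndufs4* and *Ndufc1* rose by 0.46 and 0.44 (adjusted p = 0.0415 and 0.0444). *Cox7a1* rose by 3.28 (adjusted p = 0.0483), on 0 to 8.21 CPM in LM-like sums, and lost the call in 5 of 6 fits that left out a pool. The call of *Ucp1* (adjusted p = 0.0165) rested on 1 LM-like Smart-seq2 cell that held all 980 counts, and that cell also held 1574 counts of *Fabp4* and 1109 of *Adipoq*, fat cell genes, beside 1370 of *Myog* and 3085 of *Actc1*, muscle genes.

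Few members differed by day in EM-like cells, at a share near that of all genes. Between E12.5 and E16.5, with 1 sum for each day and platform, 6 members rose (5.77% of those tested) and 1 fell, where 5.4% of all genes rose and 5.01% fell. The median log2 fold change was 0.37 over the members and 0.66 over the 15 complex V genes, 4 of which rose. *Uqcrfs1*, the Rieske iron-sulfur subunit of complex III, was at 184.96, 300.3 and 333.4 CPM on 10× and 197.6, 258.3 and 366.97 CPM on Smart-seq2 from E12.5 to E16.5 (log2 1.14, SE 0.35, adjusted p = 0.0158). Levels rose from day to day on both platforms. *Sdhd*, a membrane anchor of complex II, rose by 1.11 (adjusted p = 0.0352), and *Atp5g3*, *Atp5g2* and *Atp5c1*, the latter the central stalk subunit, rose by 1.00, 0.96 and 0.96 (adjusted p = 0.0342, 0.0354 and 0.0409). None of the 6 remained without the 10× sum of E12.5 or without the Smart-seq2 sum of E12.5 or E16.5, while 10 rose without the 10× sum of E14.5 and 12 without that of E16.5.

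The gene that fell was *mt-Nd3*, a short mitochondrially encoded subunit of complex I. In EM-like cells it was at 374.2, 267.2 and 213.8 CPM on 10× and 211.1, 156.2 and 26.1 CPM on Smart-seq2 (log2 -1.64, SE 0.38, adjusted p = 0.000515). Most of the drop was between E14.5 and E16.5 on Smart-seq2, where it went from 131.98 to 19.2 CPM in LP-like, from 184.9 to 49.2 CPM in LM-like and from 106.6 to 17.1 CPM in DF-like cells, while on 10× LP-like cells went from 243.02 to 194.98 CPM. The other 12 mt- genes did not pass in EM-like cells, and *mt-Nd6*, for example, had an estimate of 0.99 (adjusted p = 0.159). The fall was not called without the Smart-seq2 sum of E12.5 or of E16.5, or with DESeq2. By plate, with at least 5 EM-like cells each, Smart-seq2 levels were 186.1 to 321.4 CPM on 5 plates of E12.5, 136.9 to 199.1 CPM on 3 of E14.5 and 15.9 to 44.98 CPM on the 3 of E16.5, so that each plate of E16.5 stood below every plate of the earlier days. Each plate and sequencing batch held 1 day only, so day and batch cannot be told apart.

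**Figure D4:**
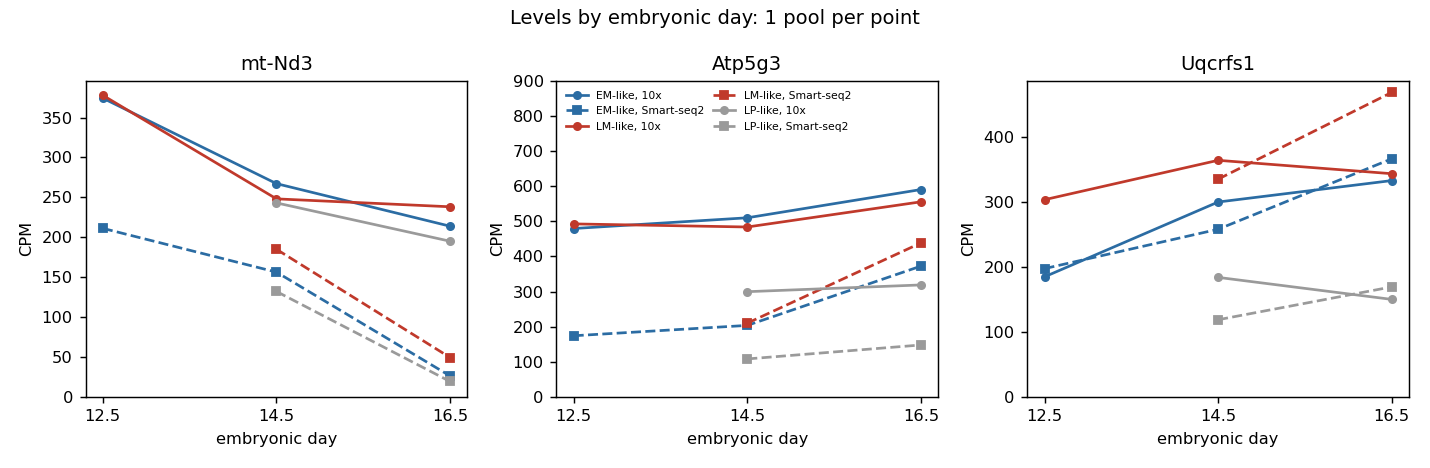
Levels (CPM, y axis) of *mt-Nd3*, *Atp5g3* and *Uqcrfs1* (panels) by embryonic day (x axis), with lines for EM-like, LM-like and LP-like sums on each platform. *mt-Nd3* on Smart-seq2 drops to 26.1 CPM in EM-like cells at E16.5, while *Uqcrfs1* reaches 333.4 and 366.97 CPM.

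No member passed between LP-like and EP-like mesenchymal progenitors, which share no day. With edgeR 0 members rose and 0 fell, with 16 not tested, where 4.91% of all genes rose and 0.947% fell. At an unadjusted p under 0.05 there were 3, and DESeq2 called 2. The median log2 fold change was 0.13 over the members and 0.11 over all genes. The mt- genes had estimates from -0.29 to 0.75 with a median of 0.38.

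Among the mt- genes the rank order per kilobase was alike in most groups. *mt-Atp6*, an ATP synthase subunit, was highest in 10 of 14 Smart-seq2 sums and *mt-Co1*, the catalytic subunit of complex IV, in the LP-like, LM-like, DF-like and N-like sums of E14.5. In BA-like cells *mt-Atp6* reached 21136 CPM per kilobase. The lowest was *mt-Nd6*, the only one of these genes on the light strand, in all 9 sums of E12.5 and E14.5 (101.6 to 240 CPM per kilobase), and *mt-Nd3* in all 5 sums of E16.5 (49.3 to 204.6 CPM per kilobase). Several of these genes overlap, by 43 bases for *mt-Atp8* and *mt-Atp6*, 7 for *mt-Nd4l* and *mt-Nd4* and 14 for *mt-Nd5* and *mt-Nd6* on opposite strands, so reads there cannot be divided with certainty.

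In the sorted bulk libraries the mt- genes took 20.8% and 15.9% of counts in the Cd36+ libraries against 3.48% to 4.35% in the 4 Pdgfra+ libraries, and nuclear subunit genes and *Cycs* took 9.05% and 7.48% of the remaining counts against 1.34% to 1.46%. In bulk samples fewer cells of a type and less RNA per cell cannot be told apart. The summed BA-like markers stood at 31574 and 29034 CPM in Cd36+ and at 179.9 to 1210 CPM in Pdgfra+ libraries. Cd36 is also an endothelial protein, and *Cdh5* was at 1.97 and 2.97 CPM in Cd36+ and 1.09 to 2.03 CPM in Pdgfra+ libraries. *Kdr* was lower in Cd36+ libraries (3.02 and 3.25 against 4.78 to 7.04 CPM). *Pecam1*, the other endothelial gene checked in single cells, is not given for these libraries.

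Both Cd36+ libraries lay above all 4 Pdgfra+ libraries for 110 members, 94.02% of those tested, beside 22.3% of all genes. With edgeR, 71 members rose and 2 fell, where 13.8% of all genes rose and 18% fell, and the median log2 fold change was 2.58. The count fell to between 12 and 36 when any 1 of the 6 libraries was left out. All 13 mt- genes rose (2.22 to 3.65), with 19 of 38 complex I, 4 of 4 complex II, 4 of 9 complex III, 8 of 16 complex IV, 7 of 17 complex V genes and 12 of 12 assembly factors. That fit also held the cultured libraries, with the bare and suffixed columns of a medium in the same group, and took its spread from all libraries. More members rose with only the libraries compared, or with 7 sets by condition and form of column name. The counts by complex thus depend on the fit and do not rank the complexes.

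*Cycs* was at 1153 and 924 CPM in Cd36+ and 95.5 to 113.6 CPM in Pdgfra+ libraries (log2 3.57, SE 1.32, adjusted p = 0.0472). *Cyc1* was at 1837 and 1673 CPM against 127.6 to 141.8 CPM (log2 3.95, SE 1.36, adjusted p = 0.0353), and *Cox5a* at 1361 and 986 CPM against 76.5 to 93.7 CPM (log2 4.09, SE 1.23, adjusted p = 0.0183). *Ucp1*, at 260 and 205.5 CPM against 0.808 to 6.23 CPM, rose by 6.46 (SE 2.39, adjusted p = 0.0471). Groups did not overlap for any of these 4 genes.

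*Cox7a1* (221.3 and 200.2 against 1.58 to 4.77 CPM) did not overlap either but missed the threshold in the fit of 4 conditions (log2 6.45, SE 2.51, adjusted p = 0.0587). Nor did *Cox8b* pass (log2 6.42, adjusted p = 0.0716), at 56.03 and 42.4 CPM against 0 to 1.41 CPM. Among members past the threshold the largest increases besides *Ucp1* were in *Atp5l-ps1* (5.69, adjusted p = 0.011) and *Cox6c2* (5.21, adjusted p = 0.0152), copies of *Atp5l* and *Cox6c* whose reads may come from those genes. *Cox4i2* fell by 3.56 on the log2 scale (0.121 and 0.668 against 1.13 to 14.4 CPM, adjusted p = 0.0118), and *Cox6a2* by 3.76 (0 and 0.0607 against 0.0577 to 1.196 CPM, adjusted p = 0.0384). For *Cox6a2* the groups overlapped and all levels were close to the floor, so its fall rests on few reads.

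For cultured cells the table does not tell which of the labelled Thy1 gates a library came from, because + and - are both written as a dot. The 6 ADM and the 6 DMEM libraries each came as 3 columns with a bare name and 3 with a suffix, and a form need not mark the same gate in both media. In ADM the mt- share was 19.98%, 19.4% and 17.6% in bare and 8.44%, 7.82% and 8.18% in suffixed libraries, and in DMEM 14.9%, 9.60% and 11.9% in bare and 7.60%, 7.73% and 7.25% in suffixed libraries. Bare libraries thus stood above suffixed ones in both media.

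Over both forms 39 members rose in ADM against DMEM, or 33.3% of those tested, where 5.21% of all genes rose, but the 6 ADM and the 6 DMEM libraries overlapped for each member tested. The median log2 fold change was 2.05. The count was 2 without any 1 of the bare ADM libraries, 85 to 90 without any 1 of the suffixed ADM libraries, 19 without bare DMEM replicate 1 and 3 without any 1 of the other DMEM libraries. By group 24 of 38 complex I genes rose, with 1 of 13 mt- genes, 4 of 16 complex IV genes and 1 of 17 complex V genes. Members that did not pass could also have large estimates, such as log2 2.47 for *Cox5b* and 2.05 for *Atp5h*. The counts by group thus do not rank the complexes.

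Within the bare libraries 97.4% of the members tested rose (all but 3), where 18.9% of all genes did, with a median log2 fold change of 2.36. Within the suffixed libraries 6 rose, where 2.63% of all genes did, with a median of 0.17. The change from DMEM to ADM libraries differed between forms for 89.7% of the members tested (all but 12), beside 13.1% of all genes. If a form marks different gates in ADM and DMEM, gate is mixed into these changes. The mt- genes had a median of 1.56 within bare and 0.05 within suffixed libraries, below the 2.71 of complex I within bare libraries.

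*Ucp1* was at 872, 823 and 845 CPM in bare ADM libraries, at 0.0566 to 0.513 CPM in bare DMEM libraries and at 0 in all 6 suffixed libraries (log2 12.70 over both forms, SE 2.44, adjusted p = 0.00777). *Cox7a1* was at 600, 545 and 527.3 CPM in bare ADM and 33.9, 17.4 and 11.7 CPM in bare DMEM libraries, and at no more than 0.59 CPM in suffixed ones. *Cycs* was at 3461 to 3631 CPM in bare ADM, 494.7 to 679 CPM in bare DMEM, 154.3 to 186.97 CPM in suffixed ADM and 88.9 to 102.9 CPM in suffixed DMEM libraries. It rose by log2 3.44 over both forms (SE 0.99, adjusted p = 0.0402), by 3.61 within bare (adjusted p = 1.03e-13) and by 0.79 within suffixed libraries (adjusted p = 0.0014).

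*Ndufa4l2*, at 0 in BA-like sums, was at 31.1 to 35.6 CPM in bare ADM libraries and 0.311 to 0.624 CPM in bare DMEM libraries. It rose by log2 6.45 over both forms (SE 1.02, adjusted p = 0.00343) and also within suffixed libraries (2.54, adjusted p = 0.00366). In Cd36+ libraries it was at 1.81 and 0.698 CPM against 16.53 to 27.1 CPM in Pdgfra+ libraries (log2 -3.85, adjusted p = 0.0508). ADM libraries of both forms thus stood above their comparison group for this gene and Cd36+ libraries below theirs, the latter without passing the threshold. The difference between these contrasts was not tested. The other members named for ADM were *Ndufa6* (3.19, adjusted p = 0.0459) and *Ndufb8* (2.89, adjusted p = 0.0468), complex I subunits, with *Cox6a1* (2.18, adjusted p = 0.0467), *Cox4i2* (2.21, adjusted p = 0.0302) and *Cox7a2l* (1.33, adjusted p = 0.0482).

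**Figure D5:**
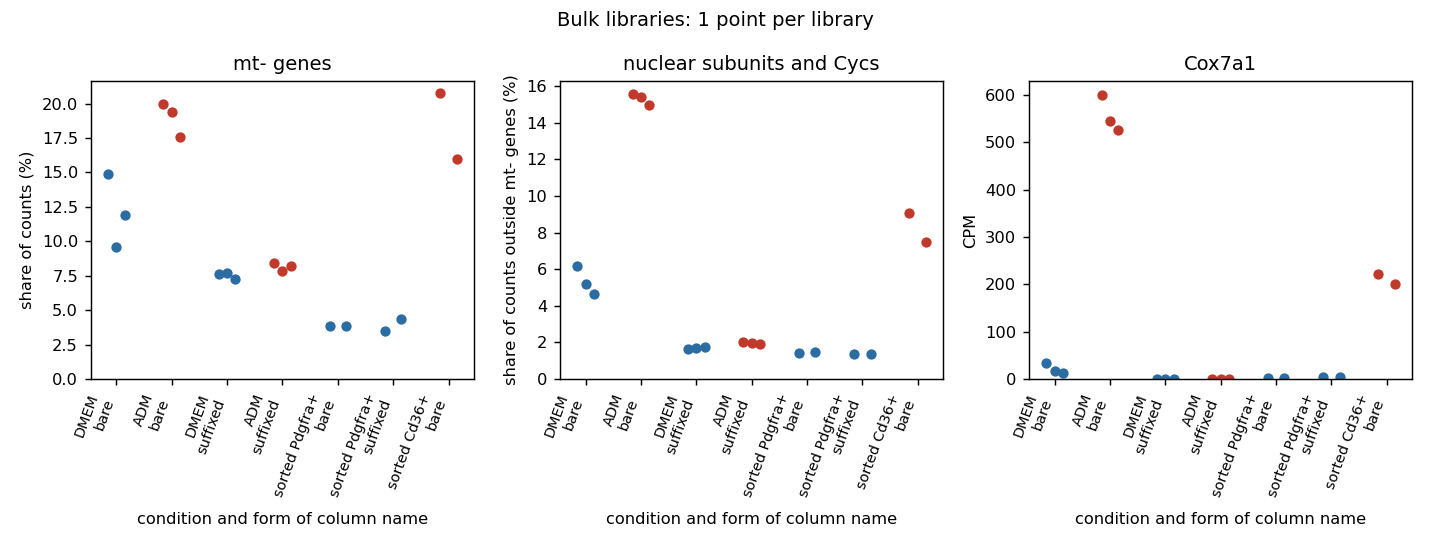
Mitochondrial share (percent), share of nuclear subunit genes and *Cycs* in the remaining counts (percent), and *Cox7a1* (CPM) in each bulk library (points), by condition and form of the column name (x axis). Cd36+ and bare ADM libraries are highest, with mitochondrial shares of 15.9% and 20.8% and of 17.6% to 19.98%.

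Genes of the other lists of mitochondrial metabolism were also mostly higher in BA-like cells, where 13.3% of all genes rose and 17.9% fell against LP-like cells. All 13 TCA cycle genes were higher than in LP-like cells (median log2 2.80, *Idh3a* 4.70), as were 13 of 14 genes of fatty acid oxidation (median 3.38, *Acadl* 4.25), 10 of 13 genes of mitochondrial DNA upkeep and transcription (median 1.63, with *Ppargc1b*, a coactivator of mitochondrial genes, at 6.48), 8 of 12 complex IV assembly factors and 9 of 10 membrane and carrier genes. Against these, 9 of 18 glycolysis genes rose and 3 fell, among them the hexokinase gene *Hk1* (log2 -4.39, adjusted p = 6.36e-05). In LM-like against EM-like cells, where 7.64% of all genes rose and 11.8% fell, 3 of 13 TCA cycle genes rose, and 1 glycolysis gene rose (*Eno3*, the muscle enolase, 1.73) while 4 fell. In Cd36+ libraries, where 13.8% of all genes rose, 6 of 13 TCA cycle, 8 of 15 fatty acid oxidation and 11 of 13 DNA upkeep and transcription genes rose, the latter led by *Ppargc1a* (6.01, adjusted p = 0.00522). In ADM 9 of 15 fatty acid oxidation genes rose over both forms, where 5.21% of all genes did. Against DF-like cells, where 13.1% of all genes rose, all 13 TCA cycle and 13 of 14 fatty acid oxidation genes rose in BA-like cells.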

How the data were processed

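Per the labels and the study's methods, the authors aligned and counted the 10× libraries with Cell Ranger, and what was deposited are counts of UMIs (unique molecular identifiers). The Smart-seq2 table deposited by the authors holds expected counts from kallisto 0.44.0, summed per gene. The deposited bulk table holds whole-number counts, and its aligner or counter is not given in the sources used here. The submitters' processing notes name mm10, with STAR, Seurat and bcl2fastq. The tables were used as deposited, and no scaling or filter on the mitochondrial share was added here. Which filters the authors had applied to cells before deposit is not known in full, although 64 cells over 8% were among those deposited.

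The members and lists were chosen with earlier results of these data known. Cells of both platforms were integrated with Seurat 5.3.0 (30 components, 2000 variable genes, Louvain resolution 0.8) without 204 genes, which included every member. The 18 clusters took the name of the class whose markers had the highest mean z-score, if at least 0.5, a limit set after the clusters were seen, with at least 3 markers in at least 5% of cells. Doublets (26, by Scrublet in scanpy 1.11.5) were kept. Each class with at least 20 cells in a pool gave 1 sum of counts, which made 31 sums from 3809 cells. Smart-seq2 sums were rounded. CPM levels were scaled to all counts of a sum's cells, while tests and summed marker levels used the 15147 genes of both tables. In these sums cells are not replicates, and pools of different platforms and days stood in for them.

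Sums and bulk libraries were tested with edgeR 4.0.16 (low counts filtered, TMM, quasi-likelihood test, Benjamini-Hochberg over all genes tested, adjusted p under 0.05) in R 4.3.3, with class and pool as terms, or platform in place of pool for LP-like against EP-like and for EM-like cells by day. The fits left out 14 members in the first 3 comparisons, 16 between progenitors and 19 by day, of which 13 were not in both single-cell tables and 1, 3 and 6 had low counts. In bulk 2 were outside the table and 4 had low counts, and 6 members were in no fit. Bulk libraries were fitted as 4 conditions, since the Thy1 gate of a column is not shown, and the planned comparisons that need the gate were not run. The SE given with a log2 fold change is its absolute value divided by the square root of the test's F statistic, an approximation that need not match the p-value. The procedure was tested on simulated data. There 34.4% of calls (11 of 32) were false for BA-like against LP-like and 33.3% (4 of 12) for BA-like against DF-like cells, above the nominal 0.05. The share was 12.5% (2 of 16) for LP-like against EP-like cells and 14.8% (4 of 27) for Cd36+ libraries. Calls were few, so these shares are rough. Adjusted p-values near the threshold are thus less sure in these comparisons than they read. Of 4-fold changes 12.1% (BA-like against DF-like) to 53.0% (ADM) were recovered, and 16.7% for LP-like against EP-like cells. Among genes of above-median level, 27.6% (BA-like against DF-like) to 92.6% (LM-like against EM-like) of them were recovered. Few of the smaller changes were recovered in any comparison, so a gene that did not pass is not shown to be unchanged. Intervals are exact 95% intervals and, like the floor of 3 counts, cover counting error only. Depth ranged from 3390851 to 35332908 counts in bulk.

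Named were *Ucp1*, *Cycs*, *Cyc1*, the isoform pairs, the 5 largest changes in each direction among members past the threshold, the highest and lowest mt- gene per group, and at most 2 genes of each other list. Other named members were chosen after their values were seen. Same-numbered cultured libraries did not deviate together (correlations from -0.0476 to 0.0208). Of 6 same-numbered pairs of sorted libraries 2 had correlations over 0.1 (-0.0242 to 0.177). Sorted sets held 2 libraries each, so both replicate numbers gave the same values, which cannot decide whether sorted libraries pair. The numbers were not used to pair libraries in the reported fits. Values by plate were added after seeing the data. Promoters were taken from a RefSeq table of GRCm38.p6, and gene positions and exon lengths from the GENCODE annotation of GRCm38. Python 3.11.15 was used for tables and figures. Alternatives were other size factors, DESeq2 1.42.0, no filter, no mt- genes, the 8% limit, resolutions 0.4 and 1.2, doublets removed, 1 platform, a replicate block, fewer libraries in the fit and each pool or library left out. Those of bulk libraries, and Smart-seq2 alone, were chosen after seeing the data.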

Additional observations from a re-analysis of the deposited data

Results flagged for a closer look

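The change from DMEM to ADM libraries differed between the 2 forms of column name for 89.7% of the members tested in edgeR's test of the difference itself. A form need not mark the same Thy1 gate in both media, so gate and medium may be mixed in these differences. For the genes named above, the log2 fold change in bare libraries exceeded that in suffixed libraries by 2.83 for *Cycs*, 2.44 for *Cyc1*, 3.41 for *Ndufa6*, 2.89 for *Ndufb8*, 1.81 for *Ndufa4* and 4.64 for *Ndufa4l2*. In complex IV the differences were 2.30 for *Cox4i1*, 2.54 for *Cox6a1*, 3.20 for *Cox6a2*, 2.05 for *Cox6b1*, 1.60 for *Cox6b2*, 4.74 for *Cox7a1*, 2.75 for *Cox7a2*, 1.34 for *Cox7a2l* and 2.38 for *Cox8a*. In ATP synthase they were 0.92 for *Atp5g1*, 1.30 for *Atp5g2* and 1.86 for *Atp5g3*. Fat cell markers moved with the form, with *Fabp4* at 35466 to 38229 CPM in bare and 1619 to 1719 CPM in suffixed ADM libraries, against 5445 to 8589 CPM in bare and 0.144 to 0.310 CPM in suffixed DMEM libraries, and their part in the difference was not tested.

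*Atp5g2* in LM-like against EM-like cells had opposite signs at E14.5 and E16.5 on each platform, lower at E14.5 and higher at E16.5, where LM-like cells stood at 1178 CPM on 10×. That difference was not tested. Within groups of 4 to 10 libraries a value far from the others was found in 2 of 76 cases, where chance gives about 1 in 20: *Atp5g3* at 176.3 CPM in suffixed Pdgfra+ replicate 1 and *Cyc1* at 127.6 CPM in bare Pdgfra+ replicate 2.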

How the results depend on the processing

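Values here are percentages of the members tested in the reported fit. Those higher in BA-like than in LP-like cells (95.4%) ranged from 77.98% to 98.2% when pools were left out, and against DF-like cells (92.7%) from 76.1% to 96.3%. The 1 member that was lower became 0 in both comparisons without cells over 8% mitochondrial counts or with Smart-seq2 sums only, and the percentage lower ranged from 0 to 1.83% and from 0 to 0.917% as pools were left out. The median share of Smart-seq2 BA-like cells was 5.72% under the 8% limit, where too few of them were left for a sum. Fits under that limit, like those with Smart-seq2 sums only, thus held 1 BA-like sum. For LM-like over EM-like cells 7.34% became 18.3% with DESeq2 size factors, 22.9% with DESeq2, 11.9% with only these classes fitted, 4.59% without mt- genes or without a filter, 2.75% with 10× and 1.83% with Smart-seq2 sums only, and 2.75% to 10.1% as pools were left out, with 0 to 0.917% lower. *Ucp1* gave no estimate there without cells over 8% or on 10× alone. Between LP-like and EP-like cells DESeq2 called 1.87% higher, and leaving out pools gave 0 to 0.935%. For EM-like cells by day, leaving out pools gave 0 to 11.5% higher and 0 to 1.92% lower, and 0 was lower with DESeq2 or, since *mt-Nd3* was then not in the table, without mt- genes. That comparison could not be run on 1 platform.

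For Cd36+ libraries the 60.7% higher became 92.3% with only the libraries compared, 96.6% with 7 sets, 94.9% within bare and 95.7% within suffixed names, and 10.3% to 30.8% as libraries were left out. The percentage lower was 0.855% with only the libraries compared and 0 to 1.71% as libraries were left out. With the replicate number as a block 25.6% were higher and 0.855% lower for Cd36+, and 1.71% were higher for ADM. The numbers are not shown to pair the libraries. For ADM the 33.3% became 86.3% with DESeq2, 5.98% without a filter, 0.855% with only the libraries compared, 91.5% with 7 sets, 97.4% within bare and 5.13% within suffixed names, and 1.71% to 76.9% as libraries were left out. The causes of these shifts were not tested. Of the percentages of members and median mitochondrial shares recomputed under an alternative, 68 (23.9%) moved. Of 2300 values of named genes under an alternative, 1957 kept their side of the threshold, 10.3% lost the call, 4.57% gained it and none changed sign past it.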
